A study of Mus musculus with 12 samples.

Results

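Type I interferon stimulated genes are genes that cells switch on when an interferon alpha or beta binds its receptor. The set described here holds 37 of them, chosen by symbol in a table of 55335 mouse genes, and each of the 37 was found there once. All 37 had a mean of at least 1 FPKM (sequenced fragments per length of transcript and per depth of library) over 12 libraries, a filter that 13794 genes passed, so every count over the members is out of 37. The RNA came from wild-type mouse colons inflamed by a chemical and was sequenced as 3 libraries in each of 4 groups: TNBS with thymopentin, TNBS with normal saline, DSS with thymopentin, and DSS with normal saline. TNBS (trinitrobenzene sulfonic acid) is a hapten that provokes a T cell driven colitis, and DSS (dextran sulfate sodium) is a polymer that injures the colon epithelium. Thymopentin is a synthetic pentapeptide modelled on a thymic protein, and the series asks what it acts on downstream in the inflamed colon. All groups had colitis, and no colon without it was analysed here. The labels give no strain, age, sex, dose or timing, nor do they state whether a library is 1 mouse, so the p-values measure the spread between libraries.

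Interferons alpha and beta bind a receptor made of IFNAR1 and IFNAR2, whose kinases phosphorylate STAT proteins, STAT2 among them. With IRF9 these form a complex that binds the interferon stimulated response element of its target promoters. The products detect viral nucleic acid, degrade viral RNA, block translation or modify proteins, and some, such as IRF7 and STAT2, feed back on the pathway. In the gut, microbial nucleic acids keep a low interferon tone in epithelium and in myeloid cells, and interferon gamma induces many of the same genes.

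The labelled tissue was checked against its markers. Epcam, an adhesion molecule of epithelium, lay between 638 and 873 FPKM in the TNBS libraries and between 496 and 859 FPKM in the DSS libraries, and all 9 colonocyte markers passed the filter. Libraries of 1 group were not alike in other cells. The 4 general leukocyte markers summed to 9.15 FPKM in TNBS thymopentin 3 and 11.2 FPKM in TNBS saline 3, against 31.8 to 140.2 FPKM in the other 10 libraries. Hoxb13, which marks distal colon, was at 0.722 FPKM in TNBS saline 3 as well, against 49.35 to 122 FPKM elsewhere. Counts of members are therefore also given without both TNBS libraries numbered 3, an alternative chosen after seeing the data.

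With thymopentin in TNBS colitis, 9 of the 37 members fell and none rose. They were Oas3, Ifit1, Isg15, Usp18, Irf7, Parp9, Parp14, Bst2 and Oas1a. In the same comparison 0.667% of all 13794 genes were called in either direction and 0.384% were called lower. A call here is an adjusted p under 0.05 in limma on log2(FPKM + 1), adjusted by the Benjamini-Hochberg method over all genes. The log2 fold change was negative for 36 members and for 43.3% of all genes. The members had a median of -0.83 and a range of -2.15 to 0.15, beside a median of 0.03 over all genes. For 31 members the thymopentin libraries all lay below the saline libraries, a pattern that 6.75% of all genes showed. At an unadjusted p under 0.05, 30 members were lower and none higher, beside 1748 of all 13794 genes in either direction. In tissue RNA, fewer cells that express a gene and less of its RNA per cell cannot be told apart.

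**Figure D1:**
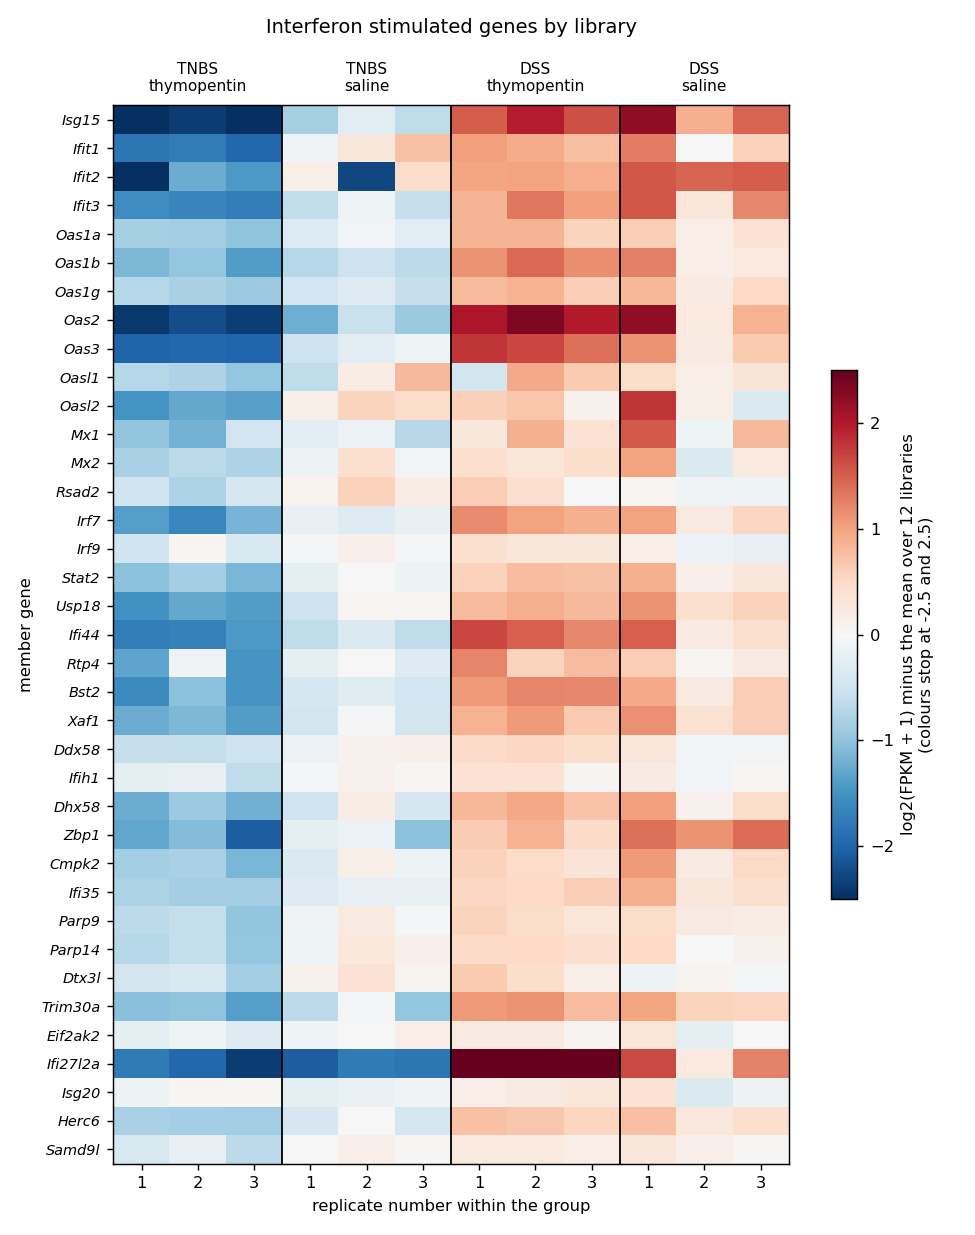
Heat map of the 37 members (rows) in 12 libraries (columns, 3 per group, numbered by replicate). Colour is log2(FPKM + 1) minus the gene's mean over the 12 libraries. Most rows are bluest in TNBS thymopentin and red in both DSS groups, and Ifi27l2a is at its deepest red in the 3 DSS thymopentin libraries.

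Oas3 belongs to the oligoadenylate synthetases, which sense double-stranded RNA and make the second messenger that activates RNase L. It stood at 1.04, 1.07 and 1.07 FPKM in the TNBS thymopentin libraries, against 4.68, 5.74 and 6.56 FPKM in the TNBS saline libraries. The thymopentin libraries were almost equal and lay far below every saline library. Its log2 fold change was -1.68 ± 0.20 (SE, n = 3 libraries a group, limma adjusted p = 0.0064). In the authors' deposited table, whose values came back to whole reads within 2.2e-10 of a read, Oas3 had 306, 296 and 303 reads with thymopentin and 1422, 1503 and 2074 with saline.

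Oas1a, a synthetase of the same family, had 28.2, 27.4 and 25.2 FPKM in TNBS thymopentin and 40.2, 48.7 and 42.4 FPKM in TNBS saline. The groups did not overlap, and the log2 fold change of -0.68 ± 0.13 only just passed (limma adjusted p = 0.0496, and 0.0941 with the replicate number as a block). The other 5 family members, Oas1b, Oas1g, Oas2, Oasl1 and Oasl2, had negative log2 fold changes that did not pass. Oasl2 was among the larger of these, at -1.77 ± 0.43, with 5.11, 6.02 and 5.65 FPKM in TNBS thymopentin against 18, 24.4 and 22.7 FPKM in TNBS saline (limma adjusted p = 0.107). All 7 family members lie on chromosome 5, and the Oas1 genes are close in sequence, so reads may have been split among them.

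Ifit1 encodes a protein that binds viral RNA lacking the host cap methylation and keeps it from being translated. It read 4.03, 4.24 and 3.56 FPKM in TNBS thymopentin and 15.7, 20.6 and 28.2 FPKM in TNBS saline. The thymopentin libraries were close together, while the saline libraries spread widely above them. The log2 fold change was -2.15 ± 0.28 (limma adjusted p = 0.00875), the most negative of the 37. Ifit3, a partner of Ifit1, had a log2 fold change of -1.21 ± 0.27 that did not pass (limma adjusted p = 0.0849). Ifit2 varied most within both TNBS groups, with 0.145, 2.96 and 2.45 FPKM in TNBS thymopentin and 9.32, 0.927 and 11.8 FPKM in TNBS saline. One saline library of Ifit2 thus lay among the thymopentin values, and its log2 fold change of -1.34 ± 0.64 did not pass. These genes are neighbours on chromosome 19 and resemble each other, so their reads too may be shared.

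Isg15 is a ubiquitin-like protein that is joined to newly made proteins during the response. Its FPKM were 6.11, 9.08 and 6.93 in TNBS thymopentin and 28.4, 42.0 and 32.5 in TNBS saline, with no overlap. It changed by -2.07 ± 0.29 on the log2 scale (limma adjusted p = 0.0114). Usp18, the protease that removes ISG15 and also quiets the receptor, had 0.895, 1.24 and 1.05 FPKM in TNBS thymopentin against 2.79, 4.63 and 4.56 FPKM in TNBS saline. Every thymopentin library was below every saline library, and the log2 fold change was -1.26 ± 0.19 (limma adjusted p = 0.0193). Herc6, the main ligase for ISG15 in mice, had a log2 fold change of -0.58 ± 0.15 that did not pass (limma adjusted p = 0.116).

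Irf7, the transcription factor that amplifies interferon production, had 8.10, 6.60 and 9.55 FPKM in TNBS thymopentin and 19.8, 17.9 and 19.9 FPKM in TNBS saline. Its saline libraries were tight and lay well above the thymopentin libraries, and the log2 fold change was -1.16 ± 0.18 (limma adjusted p = 0.0212). Stat2, a subunit of the activating complex, read 3.87, 4.46 and 3.51 FPKM in TNBS thymopentin and 7.35, 8.90 and 8.11 FPKM in TNBS saline. Although the groups did not overlap, Stat2 missed the threshold, at -0.88 ± 0.17 (limma adjusted p = 0.0542). Irf9, the DNA-binding subunit of that complex, had a log2 fold change of -0.30 ± 0.14 (limma adjusted p = 0.434).

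Parp9 and Dtx3l form a complex that joins ADP-ribose and ubiquitin to its targets, and their genes overlap at their starts. Parp9 measured 11.2, 11.7 and 8.74 FPKM in TNBS thymopentin and 17.1, 21.5 and 17.7 FPKM in TNBS saline, and fell by 0.78 ± 0.13 on the log2 scale (limma adjusted p = 0.0283). Dtx3l measured 11.95, 12.7 and 8.82 FPKM in TNBS thymopentin and 18.1, 21.97 and 17.5 FPKM in TNBS saline, and did not pass, at -0.74 ± 0.16 (limma adjusted p = 0.0687). Neither gene had overlapping groups. Parp14, an ADP-ribosyltransferase, had 8.45, 9.265 and 6.86 FPKM in TNBS thymopentin against 13.4, 17.4 and 15.9 FPKM in TNBS saline. It was called at -0.85 ± 0.14 (limma adjusted p = 0.0307), a call lost with the replicate number as a block (limma adjusted p = 0.0636).

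Bst2, also named tetherin, holds budding virions at the cell surface. It had 8.44, 12.9 and 9.26 FPKM in TNBS thymopentin and 20.1, 21.9 and 19.5 FPKM in TNBS saline, with no overlap. The log2 fold change of -0.96 ± 0.18 passed narrowly (limma adjusted p = 0.0496, and 0.0933 with the block). Rsad2, or viperin, which makes a nucleotide that ends viral RNA chains, read 3.22, 2.44 and 3.48 FPKM in TNBS thymopentin and 5.36, 7.98 and 5.83 FPKM in TNBS saline. Its groups were separate as well, but its log2 fold change of -0.86 ± 0.18 did not pass (limma adjusted p = 0.0575).

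Among the sensors, Ddx58, which encodes the RNA helicase RIG-I, had 3.01, 2.95 and 3.17 FPKM in TNBS thymopentin against 4.35, 5.38 and 5.52 FPKM in TNBS saline. It did not pass at -0.58 ± 0.11 (limma adjusted p = 0.0542), although the groups were apart. Zbp1, a sensor of Z-form nucleic acid that triggers cell death, had 6.87, 8.16 and 3.63 FPKM in TNBS thymopentin against 15.4, 16.5 and 8.56 FPKM in TNBS saline. Both libraries numbered 3 were the lowest of their groups. Zbp1 was not called at -1.01 ± 0.27 (limma adjusted p = 0.141) and was called with the replicate number as a block (limma adjusted p = 0.0444).

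At the other end, Isg20, Ifi27l2a and Eif2ak2 were nearest to no difference in TNBS colitis. Isg20, an RNA exonuclease, had 9.97, 11.3 and 11.2 FPKM in TNBS thymopentin and 9.05, 9.64 and 10.3 FPKM in TNBS saline, and was the only member with a positive log2 fold change, 0.15 (95% interval -0.18 to 0.49). Eif2ak2, which encodes the kinase PKR that halts translation, had 11.04, 12.2 and 10.5 FPKM in TNBS thymopentin and 12.2, 13.4 and 15.0 FPKM in TNBS saline. Its log2 fold change was -0.24 (95% interval -0.53 to 0.05). Ifi27l2a read 17.3, 14.9 and 11.02 FPKM in TNBS thymopentin and 13.9, 17.3 and 16.8 FPKM in TNBS saline, and the groups overlapped (log2 fold change -0.16, 95% interval -0.83 to 0.52). As a share of the saline mean, the members' TNBS thymopentin means ran from 17.7% for Ifi44 to 112% for Isg20, with a median of 49.7%.

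The count of 9 depended on libraries and on settings. With the replicate number as a block, 7 members were called lower, 6 of them among the 9. When the TNBS groups were fitted without the DSS libraries, 2 members were called lower, 1 of them among the 9. In that fit 29 members were lower at an unadjusted p under 0.05, beside 1611 of all genes in either direction. Leaving out 1 library gave 5 without TNBS saline 1, 5 without TNBS saline 2, 3 without TNBS saline 3, 2 without TNBS thymopentin 1, 4 without TNBS thymopentin 3, 18 without DSS saline 1 and 5 without DSS thymopentin 2. Over all 13794 genes these fits called from 20 lower, without TNBS thymopentin 1, to 75, without TNBS saline 2. Without DSS saline 1 that number was 67, against 53 in the main fit. Oas3 and Ifit1 were called with any 1 library left out. Without both libraries numbered 3, none of the 9 was called and Zbp1 alone was. Then 26 members were lower at an unadjusted p under 0.05, beside 1403 of all genes in either direction. The members' median log2 fold change was then -0.73. The authors' deposited table for TNBS holds 1173 genes, every 1 of them with a deposited p under 0.05 and none changed by less than 1 log2 unit. Among these are 20 of the members, all lower with thymopentin, 19 of them at a deposited FDR under 0.05. The shares of the 1173 genes that were lower or had such an FDR were not counted. The 20 and 19 therefore have no background beside them, and come from a list already limited by p and by size of change.

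**Figure D2:**
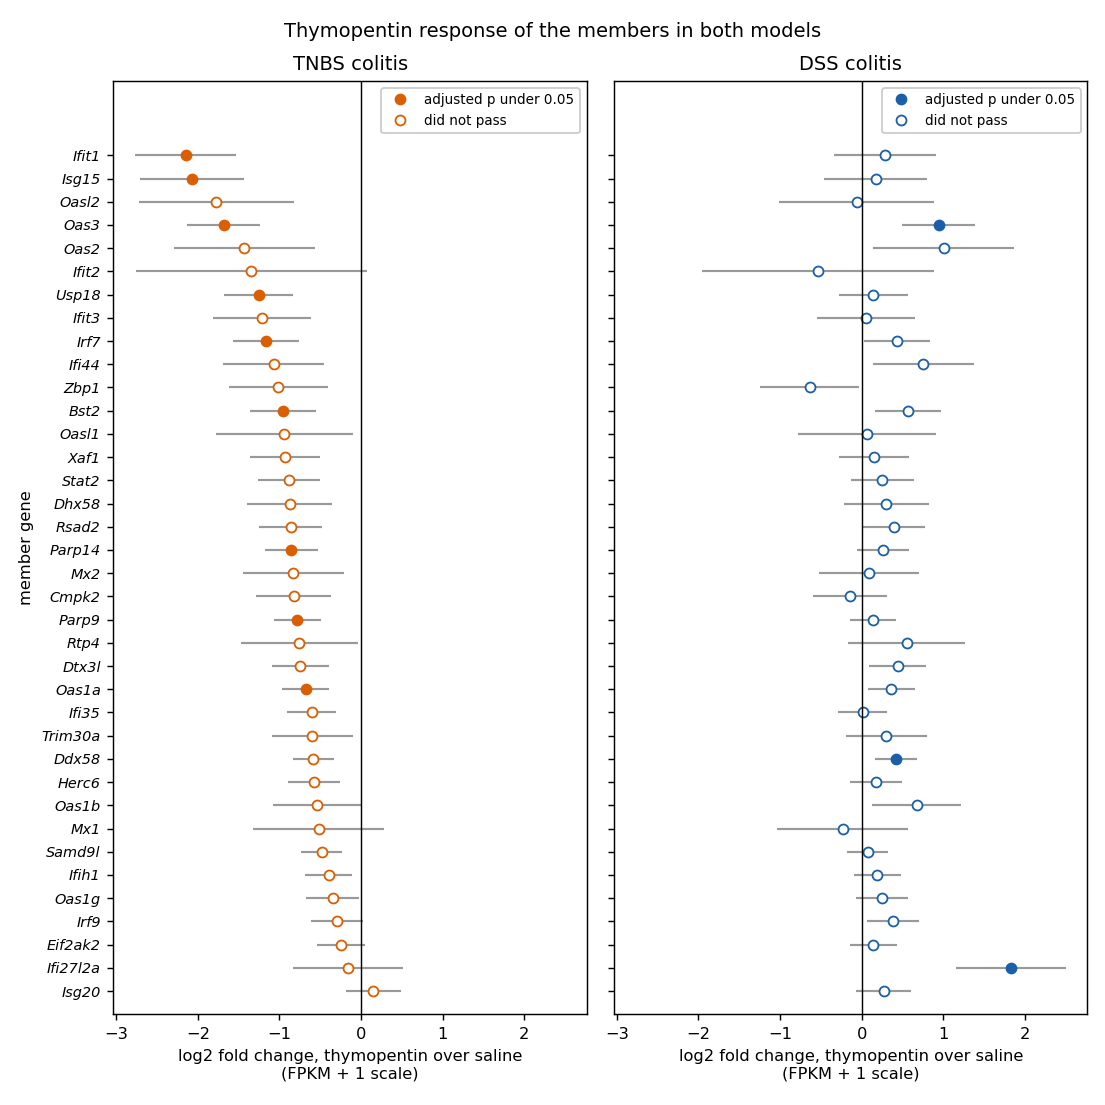
Log2 fold change of thymopentin over saline for each member (points) with its 95% interval (lines), in TNBS colitis on the left and DSS colitis on the right, ordered by the TNBS value. In TNBS 36 of 37 points lie below 0 and 9 are filled as called; in DSS 32 lie above 0 and the 3 filled ones are Oas3, Ddx58 and Ifi27l2a.

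The promoters of called members are shown because the interferon complex is known to act through a promoter element. Of the 37 members, 26 had an entry in the RefSeq promoter table of build GRCm38.p6, and 250 bases before the start were read on the gene's strand. These 26 included 6 of the 9 members called lower in TNBS: Oas3 at chr5:120777660-120777909 on the minus strand, Ifit1 at chr19:34640639-34640888 on the plus strand, Isg15 at chr4:156200819-156201068 on the minus strand, Irf7 at chr7:141266425-141266674 on the minus strand, Bst2 at chr8:71537473-71537722 on the minus strand and Oas1a at chr5:120907526-120907775 on the minus strand. The core of the element, GAAA followed by any 2 bases and by GAAA again, was searched on both strands, and overlapping matches were kept. Capitals mark the matches, which read TTTC, any 2 bases and TTTC where they lie on the opposite strand.
Oas3: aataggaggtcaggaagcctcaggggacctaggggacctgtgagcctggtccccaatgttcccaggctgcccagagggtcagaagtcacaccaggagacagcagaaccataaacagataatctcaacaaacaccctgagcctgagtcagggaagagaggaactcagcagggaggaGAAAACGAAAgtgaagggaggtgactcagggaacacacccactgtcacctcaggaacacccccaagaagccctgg
Ifit1: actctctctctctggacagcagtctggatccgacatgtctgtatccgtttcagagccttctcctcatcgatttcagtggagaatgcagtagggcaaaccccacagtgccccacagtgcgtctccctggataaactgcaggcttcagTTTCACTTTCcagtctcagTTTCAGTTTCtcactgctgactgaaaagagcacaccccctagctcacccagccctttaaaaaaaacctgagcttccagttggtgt
Isg15: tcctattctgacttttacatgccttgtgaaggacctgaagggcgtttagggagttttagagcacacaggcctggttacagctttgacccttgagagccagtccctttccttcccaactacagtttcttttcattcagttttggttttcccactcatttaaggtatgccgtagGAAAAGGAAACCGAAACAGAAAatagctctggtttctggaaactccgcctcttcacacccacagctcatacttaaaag
Irf7: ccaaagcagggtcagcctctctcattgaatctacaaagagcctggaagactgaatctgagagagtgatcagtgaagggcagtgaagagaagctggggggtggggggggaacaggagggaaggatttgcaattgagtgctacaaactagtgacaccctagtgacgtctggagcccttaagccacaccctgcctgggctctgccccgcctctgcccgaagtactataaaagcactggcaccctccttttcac
Bst2: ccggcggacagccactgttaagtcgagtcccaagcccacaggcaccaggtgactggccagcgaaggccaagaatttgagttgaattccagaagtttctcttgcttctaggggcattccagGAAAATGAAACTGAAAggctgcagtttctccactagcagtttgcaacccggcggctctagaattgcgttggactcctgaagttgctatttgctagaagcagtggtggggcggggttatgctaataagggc
Oas1a: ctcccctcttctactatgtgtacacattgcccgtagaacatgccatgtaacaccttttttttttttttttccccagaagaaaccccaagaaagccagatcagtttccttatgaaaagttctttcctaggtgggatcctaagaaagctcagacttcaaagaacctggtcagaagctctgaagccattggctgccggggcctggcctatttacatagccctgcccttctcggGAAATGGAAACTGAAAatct
The motif was present in 10 of the 26 members (38.5%), beside 936 of 27025 genes in the table (3.46%). Isg15 held 3 overlapping matches, which begin 78, 72 and 66 bases before the start. Ifit1 had 2, at 104 and 85 bases, Bst2 had 2, at 130 and 124 bases, and Oas1a had 2, at 20 and 14 bases. Oas3 had 1, at 75 bases, and these letters are not in the Irf7 window. A match describes the sequence and is not a measured binding site.

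In DSS colitis no member was called lower with thymopentin. Ifi27l2a, Oas3 and Ddx58 rose, while 17% of all genes were called in this comparison, 12.7% higher and 4.3% lower. A count of 3 in 37 is below that background. The median log2 fold change of the members was 0.25, with a range of -0.64 to 1.83, beside 0.12 over all genes. With median-ratio rescaling the median of all genes moved to 0.01, that of the members to 0.13, and the members above 0 to 27, against 32 as deposited. Over all genes 33.9% were below 0 as deposited and 48.2% after rescaling. The same rescaling put 49.8% of all calls in the higher direction, against 74.7% as deposited. The thymopentin libraries all lay above the saline libraries for 6 members and all below for 2, where 28.3% and 11.5% of all genes did so.

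Ifi27l2a, a small interferon induced gene of the Ifi27 family, had 506, 498 and 374 FPKM in DSS thymopentin and 193, 72.6 and 147 FPKM in DSS saline. The lowest thymopentin library was well above the highest saline library. Its log2 fold change was 1.83 ± 0.30 (limma adjusted p = 0.00488), and its thymopentin mean was 334% of its saline mean. It is the only member in the authors' deposited table for DSS, where its log2 fold change is 1.71 at a deposited FDR of 0.00205.

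Oas3 read 27.0, 24.8 and 20.1 FPKM in DSS thymopentin and 16.7, 8.49 and 11.8 FPKM in DSS saline. The groups did not overlap, and the log2 fold change was 0.94 ± 0.20 (limma adjusted p = 0.0134). Oas3 was thus called lower with thymopentin in TNBS and higher in DSS, the only member called in both. Both Ifi27l2a and Oas3 were called in DSS under every alternative that was run, with limma adjusted p of at most 0.0259 and 0.0483.

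Ddx58 had 7.24, 7.48 and 7.06 FPKM in DSS thymopentin, against 6.32, 4.64 and 4.67 FPKM in DSS saline. DSS saline 1 was nearest to the thymopentin libraries without reaching them. The log2 fold change was 0.42 ± 0.11 (limma adjusted p = 0.0325), a call lost without any 1 of DSS saline 2, DSS saline 3 or the 3 DSS thymopentin libraries, and with median-ratio rescaling.

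Bst2, Oas1a and Dtx3l came next and did not pass. Bst2 had 58.2, 65.1 and 64.4 FPKM in DSS thymopentin and 53.9, 32.0 and 42.5 FPKM in DSS saline (log2 fold change 0.57, limma adjusted p = 0.0571). Oas1a had 93.0, 92.6 and 75.9 FPKM in DSS thymopentin and 79.0, 57.6 and 66.4 FPKM in DSS saline (log2 fold change 0.37, limma adjusted p = 0.0751). Dtx3l had 26.9, 23.2 and 18.7 FPKM in DSS thymopentin and 15.2, 17.7 and 16.5 FPKM in DSS saline (log2 fold change 0.44, limma adjusted p = 0.0766). The groups of Bst2 and Dtx3l did not overlap, and those of Oas1a did. Zbp1 went the other way, with 29.1, 34.5 and 26.1 FPKM in DSS thymopentin against 49.1, 41.1 and 50.4 FPKM in DSS saline, and did not pass at -0.64 ± 0.27 (limma adjusted p = 0.13).

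Several of the genes that were lowest with thymopentin in TNBS had small differences in DSS. Isg15 read 148, 201 and 158 FPKM in DSS thymopentin and 239, 96.7 and 142 FPKM in DSS saline, where its log2 fold change was 0.17 (95% interval -0.47 to 0.81). Ifit1 had 35.2, 32.7 and 29.0 FPKM in DSS thymopentin and 41.8, 16.9 and 25.2 FPKM in DSS saline, a log2 fold change of 0.29 (95% interval -0.33 to 0.91). In both genes DSS saline 1 was the highest of the 6 libraries and DSS saline 2 the lowest.

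That split ran through the whole set. DSS saline 1 was the highest library of its group for 35 of 37 members, and DSS saline 2 was the lowest for 30. The coefficient of variation between libraries had a median over members of 16.4% in TNBS thymopentin, 15.2% in TNBS saline, 10.3% in DSS thymopentin and 25.6% in DSS saline. Without DSS saline 1, 11 members were called higher with thymopentin in DSS and the median log2 fold change was 0.44. Over all 13794 genes 971 were then called higher and 386 lower, against 1753 and 593 in the main fit. Without TNBS thymopentin 2, which changes only the shared spread, 5 members and 1522 of all genes were called higher.

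**Figure D3:**
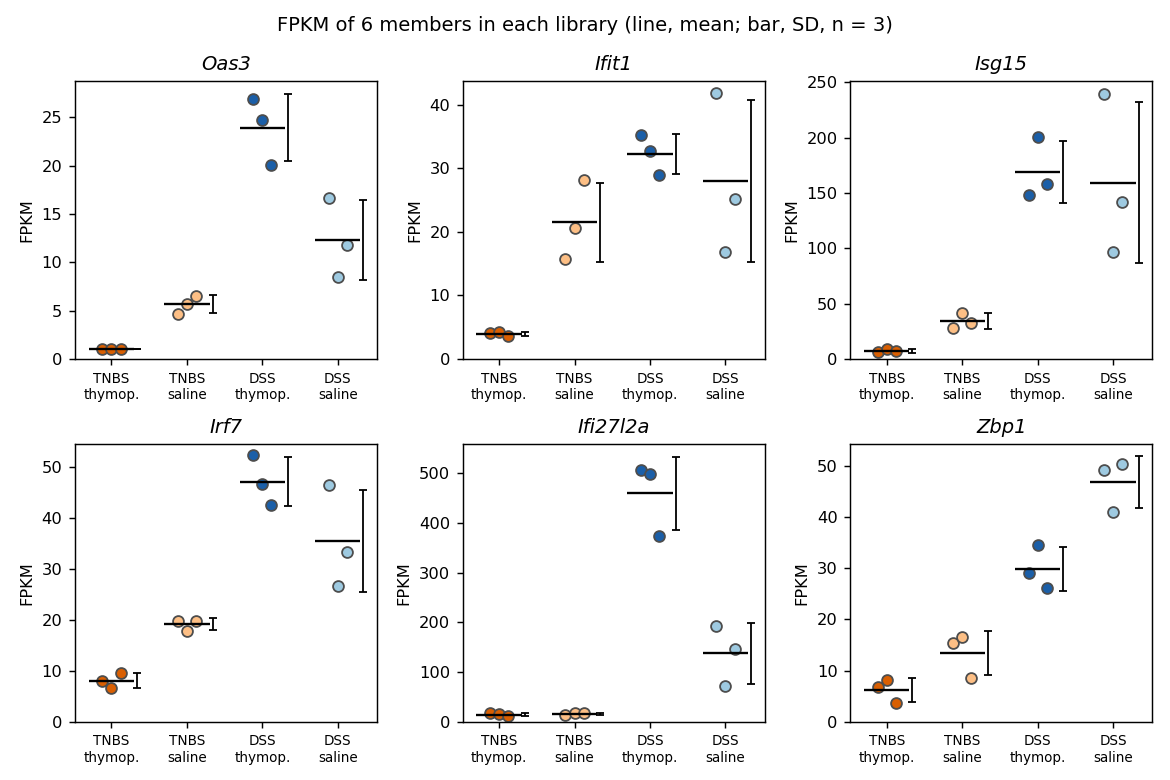
FPKM of 6 members in each library (points), with the group mean (line) and SD (bar, n = 3 libraries), on axes that start at 0. Oas3, Ifit1, Isg15 and Irf7 are lowest in TNBS thymopentin, Ifi27l2a is highest in DSS thymopentin at 374 to 506 FPKM, and Zbp1 is highest in DSS saline at 41.1 to 50.4 FPKM.

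The difference between the responses, thymopentin over saline in DSS minus the same in TNBS, was tested directly. It was positive for all 37 members and negative for 36.9% of all genes. The median was 1.08 for the members beside 0.11 over all genes, and 16 members passed. Over all genes 5.15% were called, 2.73% in the positive and 2.42% in the negative direction. All 9 members called lower in TNBS were among the 16, joined by Ddx58, Dtx3l, Rsad2, Stat2, Ifi27l2a, Ifi44 and Oas2. The TNBS response is itself a term of the difference, so the return of the 9 is in part built in. Oas3 had the smallest p, with a difference of 2.63 ± 0.28 (limma adjusted p = 0.00348), followed by Ddx58 at 1.01 ± 0.16 and Irf7 at 1.60 ± 0.26 (both limma adjusted p = 0.0117). Irf7 had 52.4, 46.7 and 42.7 FPKM in DSS thymopentin and 46.5, 26.8 and 33.4 FPKM in DSS saline. One DSS saline library of Irf7 lay within the thymopentin range, in contrast to the separate groups in TNBS.

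By sign, 31 members were lower with thymopentin in TNBS and higher in DSS, 5 were lower in both and Isg20 was higher in both. Over all genes 43.3% were below 0 in TNBS and 33.9% in DSS, so most genes were above 0 in DSS. Rescaling moved DSS signs, and 10 members and 48.2% of all genes were below 0 in DSS after median-ratio rescaling. Across the 37 members the TNBS and DSS responses had a Pearson r of 0.11 and a Spearman rho of 0.065, given as a description, since the members share libraries. With the replicate number as a block 13 of the 16 differences stayed called, and Stat2, Ifi27l2a and Oas2 were lost (limma adjusted p = 0.0602, 0.0538 and 0.056). Without both TNBS libraries numbered 3, 11 were called, beside 332 positive differences called over all genes. Leaving out DSS saline 3 left 6 called, DSS thymopentin 2 left 7, and DSS saline 1 gave 25. Over all genes those fits called 108, 122 and 269 positive differences, against 376 in the main fit. In the main fit 53% of the calls over all genes were in the positive direction, against 41.5% after median-ratio rescaling.

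The members stood higher in DSS than in TNBS colitis. Under saline, 22 of 37 were called higher in DSS and none lower, beside 46.6% of all genes called and 15.2% called higher. The median log2 difference was 0.75 for the members and -0.14 for all genes, and the ratio of mean FPKM, DSS saline over TNBS saline, ran from 0.747 for Rsad2 to 8.59 for Ifi27l2a. For 22 members every DSS saline library lay above every TNBS saline library, as it did for 18.8% of all genes. Without both TNBS libraries numbered 3, 19 members were called higher, and 1840 of all genes, against 2090 in the main fit. After median-ratio rescaling 23 were called higher, and 44.8% of all calls were higher, against 32.5% as deposited.

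Ifi27l2a had the smallest p under saline. Its 193, 72.6 and 147 FPKM in DSS saline stood against 13.9, 17.3 and 16.8 FPKM in TNBS saline, a log2 difference of 2.92 ± 0.30 (limma adjusted p = 9.81e-05). Isg15 followed at 2.10 ± 0.29 (limma adjusted p = 0.00033), with 239, 96.7 and 142 FPKM in DSS saline against 28.4, 42.0 and 32.5 FPKM in TNBS saline. Oas1g, a synthetase gene beside Oas1a, had 52.8, 33.8 and 41.4 FPKM in DSS saline and 20.6, 23.0 and 19.1 FPKM in TNBS saline, and was higher by 0.98 ± 0.15 on the log2 scale (limma adjusted p = 0.000513). Zbp1 was higher by 1.77 ± 0.27 (limma adjusted p = 0.000611). In each of these the DSS and TNBS libraries did not overlap.

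Some members that were lower with thymopentin in TNBS, called or not, did not differ detectably between the models under saline. Ifit1 had a log2 difference of 0.31 (95% interval -0.31 to 0.93), Parp14 of 0.11 (95% interval -0.21 to 0.43) and Parp9 of 0.26 (95% interval -0.02 to 0.55). Ddx58, with 6.32, 4.64 and 4.67 FPKM in DSS saline and 4.35, 5.38 and 5.52 FPKM in TNBS saline, had a log2 difference of 0.02 and overlapping groups. Rsad2 was the only member whose DSS saline libraries, at 5.16, 4.63 and 4.55 FPKM, all lay below those of TNBS saline, at 5.36, 7.98 and 5.83 FPKM, a pattern that 37.7% of all genes showed; it did not pass (log2 difference -0.34, limma adjusted p = 0.136).

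Under thymopentin, 36 of 37 members were called higher in DSS than in TNBS, all but Isg20, where 27.5% of all genes were called and 11% were called higher. For all 37 every DSS thymopentin library lay above every TNBS thymopentin library, as it did for 18.7% of genes. The median log2 difference was 1.69, beside -0.04 over all genes. The ratio of mean FPKM ran from 1.198 for Isg20 to 39.1 for Oas2, with a median of 4.12. Without both TNBS libraries numbered 3, 33 members were called higher, and 1164 of all genes, against 1524 in the main fit.

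Oas3 showed the smallest p here, with 27.0, 24.8 and 20.1 FPKM in DSS thymopentin against 1.04, 1.07 and 1.07 FPKM in TNBS thymopentin (log2 difference 3.59 ± 0.20, limma adjusted p = 7.81e-06). Ifi27l2a differed by 4.91 ± 0.30 and Isg15 by 4.35 ± 0.29 on the log2 scale. Bst2 differed by 2.52 ± 0.18, with 58.2 to 65.1 FPKM in DSS thymopentin and 8.44 to 12.9 FPKM in TNBS thymopentin. Of the 36 members, 22 were also called under saline and 14 were called under thymopentin alone.

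**Figure D4:**
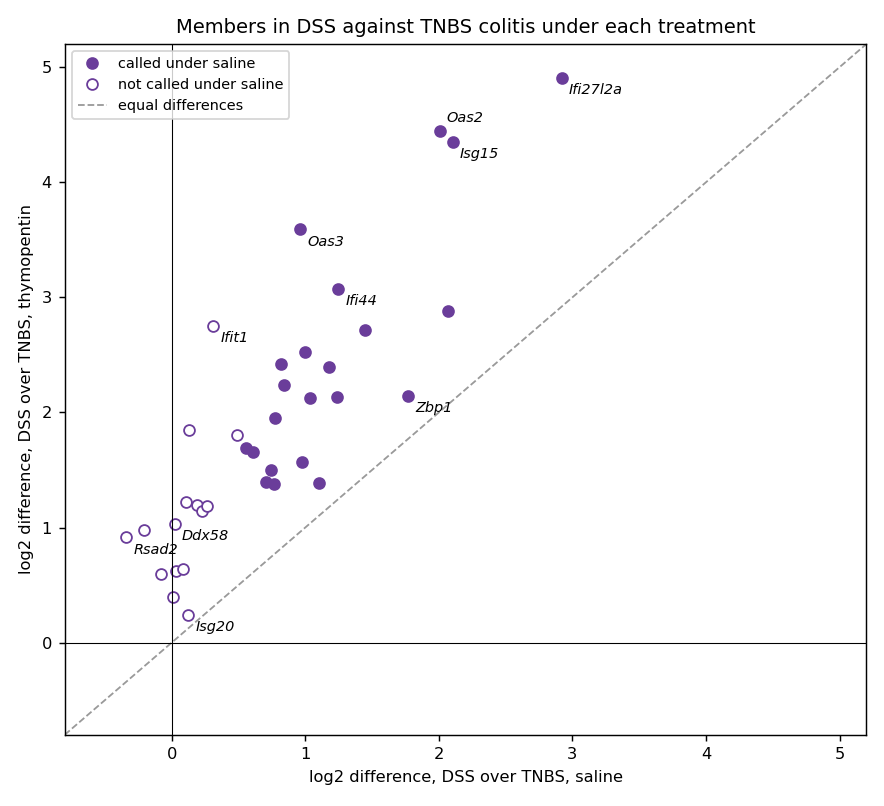
Log2 difference of DSS over TNBS for each member under saline (horizontal axis) and under thymopentin (vertical axis), filled where called under saline; the dashed line marks equal differences. All 37 points lie above the line, which is the positive difference of responses drawn another way, and Ifi27l2a is farthest out at 2.92 and 4.91.

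The order of group means was the same in most members. In 25 it ran DSS thymopentin, DSS saline, TNBS saline, TNBS thymopentin from high to low. In 8 members, Cmpk2, Ifi35, Ifit2, Ifit3, Mx1, Mx2, Oasl2 and Zbp1, DSS saline stood above DSS thymopentin with the TNBS groups in the same order. In Dtx3l, Irf9 and Rsad2 TNBS saline came second, above DSS saline. Isg20 alone had TNBS saline lowest. The neighbours DSS thymopentin and DSS saline differed past the test's threshold in 3 members alone.

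No pathway gene outside the set was called with thymopentin in TNBS. Of 52 other genes listed by role (ligands, receptors, kinases, factors, relays and inhibitors), 28 passed the filter, and 22 of these had negative log2 fold changes, with a median of -0.13. Irf1, a factor induced chiefly by interferon gamma, did not pass at -0.81 ± 0.41 (limma adjusted p = 0.464). The receptor genes Ifnar1 and Ifnar2 had log2 fold changes of -0.17 and -0.18 and were not called.

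Interferon ligands were almost undetected. Of 18 type I ligand genes, 16 were listed at 0 in all 12 libraries, Ifnb1 among them, and no value exceeded 0.0972 FPKM. Ifng, the type II ligand made by T and NK cells, was listed at 0 in the 3 TNBS thymopentin libraries and at 0.141, 0.279 and 0.103 FPKM in TNBS saline. It read 0.380, 0.212 and 0.386 FPKM in DSS thymopentin and 0.684, 0.995 and 0.757 FPKM in DSS saline. In both models Ifng was lower in every thymopentin library than in every saline library, but at levels below the filter, where it was not tested.

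In DSS, 5 of the 28 pathway genes were called with thymopentin, a share near the 17% of all genes called. Socs3 and Socs1, inhibitors of JAK signalling that cytokines induce, fell. Socs3 had 4.27, 7.59 and 7.09 FPKM in DSS thymopentin and 48.2, 28.2 and 23.9 FPKM in DSS saline (log2 fold change -2.20 ± 0.36, limma adjusted p = 0.00469). Socs1 had 2.31, 2.95 and 3.54 FPKM in DSS thymopentin and 6.94, 5.01 and 4.32 FPKM in DSS saline (log2 fold change -0.70 ± 0.17, limma adjusted p = 0.0222). The groups of both genes were apart. Irf2, a repressor that competes with Irf1, rose by 0.55 ± 0.16, Mavs, the adaptor of RIG-I, by 0.42 ± 0.10, and Trim25, a ligase that activates RIG-I, by 0.43 ± 0.12, with limma adjusted p of 0.0401, 0.0213 and 0.0331.

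Between models the receptor genes went both ways. Under saline 9 of the 28 were called lower in DSS and 5 higher, shares near the 31.5% and 15.2% of all genes. Ifnar2 was higher in DSS by 1.07 ± 0.15 and Ifnar1 lower by a log2 difference of -0.59 ± 0.20, with limma adjusted p of 0.000352 and 0.0341. The interferon gamma receptor genes Ifngr1 and Ifngr2 were lower in DSS, with log2 differences of -0.99 and -0.83, as were Jak2, Mavs, Tbk1, Ticam1, Trim25 and Pias1. Socs1, Socs3, Myd88 and Tmem173, which encodes the adaptor STING, were higher, with log2 differences of 1.40, 1.97, 0.31 and 0.86. Under thymopentin Ifnar2, Irf2 and Socs1 were among those called higher in DSS, with log2 differences of 0.84, 0.54 and 1.11, while Jak2 and Mavs were called lower. Of the 28, Trim25 alone passed the test of the difference between responses, at 0.82 ± 0.17 (limma adjusted p = 0.0249).

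Markers of other cells were measured in the same libraries, and some moved with treatment. The summed FPKM of 6 NK and cytotoxic markers was 0.426 to 2.47 in TNBS thymopentin against 4.40 to 10 in TNBS saline, and Gzma, which encodes granzyme A, was called lower. The summed FPKM of 7 T cell markers was 2.30 to 8.63 in TNBS thymopentin against 5.504 to 14.9 in TNBS saline; all 7 log2 fold changes were negative and none was called. The 7 macrophage markers summed to 21.0 to 41.1 FPKM in TNBS thymopentin and 21.1 to 43.6 FPKM in TNBS saline. The macrophage sums of the TNBS groups overlapped, and the NK and cytotoxic sums did not. B and plasma cell markers summed to 52.4 to 101 FPKM in TNBS thymopentin and 36.1 to 252 FPKM in TNBS saline, and colonocyte markers to 3669 to 4461 FPKM in TNBS thymopentin and 3987 to 6521 FPKM in TNBS saline. Of the 9 colonocyte markers, 7 had negative log2 fold changes, with a median of -0.29 over the list. Slc26a3, a chloride exchanger of colonocytes, went the other way and was the 1 colonocyte marker called, higher with thymopentin. Over all 53 tested markers 1 was called lower and 1 higher, beside 0.384% and 0.283% of all genes. The 7 neutrophil markers summed to 0.236 to 1.003 FPKM in TNBS thymopentin and 1.88 to 8.71 FPKM in TNBS saline, without overlap, and neither of the 2 tested was called.

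The plasmacytoid dendritic cell makes much interferon alpha. Siglech and Cox6a2, 2 of the 7 genes in its list, did not exceed 0.352 and 0.582 FPKM in any library. The whole list summed to 834 to 1199 FPKM in TNBS thymopentin and 568 to 964 FPKM in TNBS saline, and to 790 to 833 FPKM in DSS thymopentin and 549.6 to 620.1 FPKM in DSS saline, where the groups did not overlap. Nearly all of each sum was Klk1, a kallikrein gene, with log2 fold changes of 0.45 in TNBS and 0.47 in DSS that did not pass; Spib, the other tested gene of the list, did not pass either.

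Between models under saline, all 7 T cell markers, all 6 tested macrophage markers and all 3 tested cytotoxic markers were called higher in DSS. So were all 4 endothelium markers, 4 of 5 smooth muscle markers and 1 of 4 general leukocyte markers. None of 5 B and plasma cell markers was called, and 5 of 9 colonocyte markers were called lower. Of all 53 tested markers 26 were called higher and 6 lower, beside 15.2% and 31.5% of all genes. T cell markers summed to 39.6 to 61.1 FPKM in DSS saline and 5.504 to 14.9 FPKM in TNBS saline, and macrophage markers to 127 to 174 FPKM in DSS saline and 21.1 to 43.6 FPKM in TNBS saline. Within DSS the macrophage sum was 105 to 117 FPKM with thymopentin and 127 to 174 FPKM with saline, the reverse of the order of most members, and Mrc1 was called lower. Neutrophil markers summed to 0.65 to 1.26 FPKM in DSS thymopentin and 5.17 to 9.53 FPKM in DSS saline, without overlap, and S100a8 and S100a9, the calprotectin subunits, were called lower. The log2 fold change of S100a8 was -1.66, and S100a9 was listed at 0 in all 3 DSS thymopentin libraries. The smooth muscle markers Des and Cnn1 were also called lower with thymopentin in DSS, and the colonocyte markers Epcam, Cdh1 and Cdx1 higher. Of the 9 colonocyte markers 2 had negative log2 fold changes. All 5 goblet cell markers had negative ones, with a median of -0.38, and none was called. Over all 53 tested markers 5 were called lower and 3 higher with thymopentin in DSS, beside 4.3% and 12.7% of all genes. DSS saline 2 had the most T cell marker RNA of its group, 61.1 FPKM, and the smallest member sum, 702 FPKM. The part of these cells in the members' differences was not tested.

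**Figure D5:**
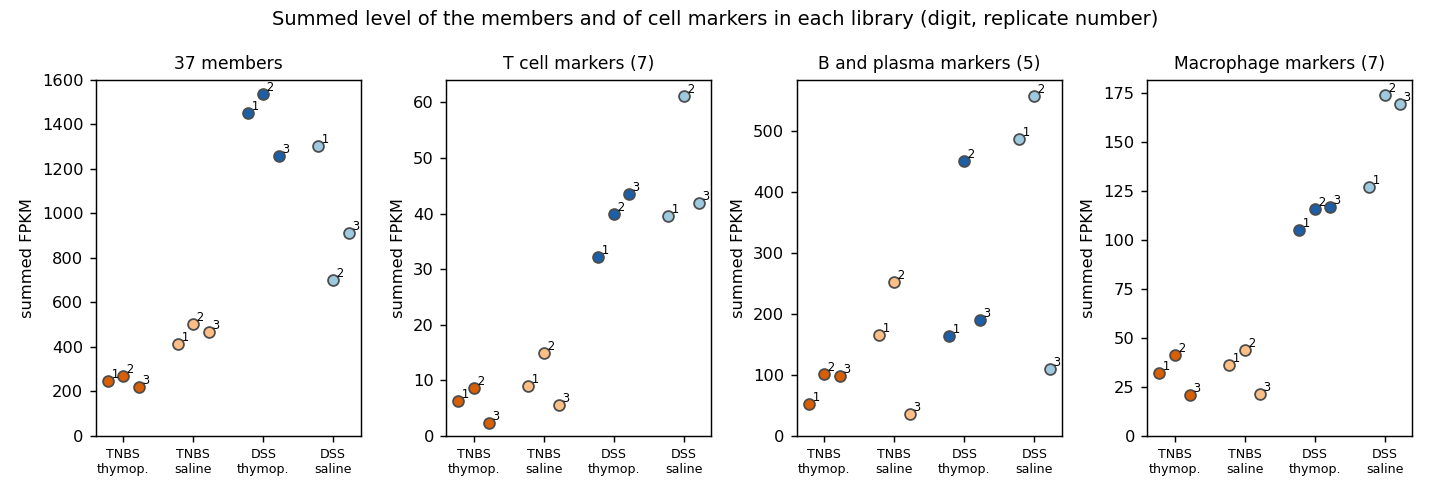
Summed FPKM per library (points, with the replicate number beside them) of the 37 members and of T cell, B and plasma cell, and macrophage markers, on axes that start at 0. The members sum to 220 to 268 FPKM in TNBS thymopentin, below the 414 to 502 FPKM of TNBS saline. The marker sums drawn here overlap between those groups. The NK and cytotoxic sums and the neutrophil sums, which are not drawn, do not overlap between them.

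As 1 sum, the members came to 245, 268 and 220 FPKM in TNBS thymopentin and 414, 502 and 465 FPKM in TNBS saline. In DSS they came to 1450.5, 1535 and 1256 FPKM with thymopentin and 1304, 702 and 911 FPKM with saline. Ifi27l2a made up much of the DSS sums. Without it they were 944, 1037 and 882 FPKM in DSS thymopentin and 1111, 629 and 764 FPKM in DSS saline, and the groups overlapped. In TNBS they were 228, 253 and 209 FPKM with thymopentin and 400.1, 484 and 448 FPKM with saline, still apart.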

How the data were processed

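Expression was analysed in 12 colon libraries, grouped by the treatment labels, with replicate numbers from the sample titles. The authors deposited FPKM for all genes. For selected genes they also deposited log2 values per library with a p-value, an FDR and a log2 fold change, per the file headers. Per the submitters' processing notes the tools were FastQC, STAR 2.5, Cuffnorm and DESeq 1.22.1, with build mm9; the gene models are not named. The libraries were stranded and extracted with TRIzol, per the labels' protocols. FPKM are not counts and the read totals are unknown, so no count test was run on all genes; whole reads came back for the authors' selected genes alone.

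Genes with a mean of at least 1 FPKM over the 12 libraries were tested on log2(FPKM + 1), which understates the change of low genes. limma 3.58.1 in R 4.3.3 fitted 4 group means with a trended empirical Bayes spread, two-sided, with Benjamini-Hochberg adjustment over all 13794 genes. The script was tested on simulated data. Python 3.11.15 with pandas 2.3.3, numpy 2.4.6 and matplotlib 3.10.9 made the summaries and plots. Values in every library are given for the 12 members of smallest p in TNBS, 6 in DSS, 3 in the difference and 4 in each comparison of models, and for the 3 members nearest 0 in TNBS; Ifit2, Oasl2 and Ifng were added after their values were seen, as were Gzma, Hoxb13 and the other called marker genes, given in part. Some listed pathway and marker genes are not reported here by name. The members and lists were chosen with earlier results of these data known.

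Deviations from group means correlated between TNBS libraries of the same number at 0.124, 0.268 and 0.476. Between TNBS libraries of different numbers the correlations ran from -0.442 to 0.287. The highest of these, thymopentin 1 with saline 2, exceeded the 0.124 of the libraries numbered 1. The numbers thus do not clearly pair the TNBS libraries, and the labels do not explain them. In DSS the correlations between libraries of the same number were -0.136, 0.0427 and -0.14. These do not settle whether the numbers pair the libraries, for which the labels show only the number in common. The main fit has no pairing term; the block is an alternative, beside other pseudocounts, filters, scalings, weights and sets of libraries.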

Additional observations from a re-analysis of the deposited data

Results flagged for a closer look

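For 16 members the response to thymopentin differed between the models by a direct test, the log2 fold change of thymopentin over saline in DSS minus that in TNBS. All were positive. The oligoadenylate synthetase genes Oas3, Oas2 and Oas1a had differences of 2.63, 2.44 and 1.04. Ifit1, which binds viral RNA, had 2.44. Isg15 and Usp18, the modifier and the protease that removes it, had 2.24 and 1.40. Irf7 and Stat2, transcription factors of the pathway, had 1.60 and 1.14. Parp14, Dtx3l and Parp9, of the ADP-ribose and ubiquitin machinery, had 1.11, 1.18 and 0.92. The antiviral effectors Bst2 and Rsad2 had 1.52 and 1.26, and the sensor gene Ddx58 had 1.01. Ifi27l2a and Ifi44 had 1.99 and 1.82. The limma adjusted p of these 16 lay between 0.00348 for Oas3 and 0.0357 for Oas2. For Ifi27l2a the TNBS groups overlapped and thymopentin was called higher than saline in DSS.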

How the results depend on the processing

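No member or summary changed sign while called, under any alternative that was run. Counts of members called lower in TNBS were 15 with a pseudocount of 0.1 FPKM, 5 with 5 FPKM, 3 with no filter on low values, 2 with only the TNBS groups fitted, 27 with array weights and 1 without both TNBS libraries numbered 3 (chosen after seeing the data). All genes called in TNBS numbered 44 with no filter, 6 with only the TNBS groups, 2547 with array weights and 45 without both libraries numbered 3, against 92. The array weights did not converge and gave TNBS saline 1 a weight of 31.7, against 0.395 to 1.63 for the other libraries. The members' median log2 fold change in TNBS was -0.49 with a pseudocount of 5 FPKM.

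In DSS, 2 members were called lower with only the DSS groups fitted, and 1 each with array weights, with the replicate block and without both TNBS libraries numbered 3; 10 were called higher with array weights. All genes called in DSS numbered 1447 with a mean FPKM of at least 5 and 4025 with array weights, against 2346. With the replicate block, Ddx58 was lost (limma adjusted p = 0.054) and Zbp1 was called lower (limma adjusted p = 0.0325). The labels do not say whether the replicate numbers pair the DSS libraries.

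For the difference of responses, 10 members were called with no filter and 28 with array weights, against 16, and the median was 1.296 with a pseudocount of 0.1 FPKM and 0.71 with 5 FPKM. All genes called numbered 385 with a mean FPKM of at least 5, 355 with no filter and 2889 with array weights, against 710. Between models under saline the members' median was 0.52 with a pseudocount of 5 FPKM, and 3661 genes were called with a mean FPKM of at least 5. Under thymopentin the median was 2.11 with a pseudocount of 0.1 FPKM and 1.18 with 5 FPKM. The cause of these shifts was not tested.

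Leaving out 1 library gave 2 to 18 members called lower in TNBS, with medians of -0.93 to -0.69 and 41 to 116 genes called in all. In DSS it gave 2 to 11 members called higher, medians of 0.10 to 0.44 and 923 to 2505 genes called. For the difference it gave 6 to 25 members, medians of 0.93 to 1.25 and 176 to 764 genes. Between models it gave 17 to 22 members under saline, with medians of 0.53 to 0.89 and 5347 to 6434 genes, and 33 to 36 under thymopentin, with medians of 1.61 to 1.77 and 2052 to 3999 genes. Read totals were not given, so the depth that limits the lowest members, such as Mx2 and Ifi44, is unknown outside the genes the authors selected.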
